A study of Mus musculus with 4 samples.

Results

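The aminoacyl-tRNA synthetases are the enzymes that join each amino acid to its tRNA. Of the 27593 genes with a named probe on the arrays, 35 were taken as members by their gene symbols: 20 cytosolic enzymes (Aars, Cars, Dars, Eprs, Farsa, Farsb, Gars, Hars, Iars, Kars, Lars, Mars, Nars, Qars, Rars, Sars, Tars, Vars, Wars and Yars) and 15 mitochondrial enzymes (Aars2, Cars2, Ears2, Fars2, Iars2, Lars2, Mars2, Nars2, Pars2, Rars2, Sars2, Tars2, Vars2, Wars2 and Yars2). The members were taken by symbol with no cut on a measured value, but they were chosen with earlier results of these data known. RNA of 4 groups of BALB/c mouse CD4+ T cells from spleen and lymph nodes was measured on 1-colour Agilent arrays, with 1 array per group. Untransduced cells were CD4+CD25-CD62L-high naive T cells in 1 group and CD4+CD25+ natural regulatory T cells (Treg) in another. The others were Treg given a lentivirus with a short hairpin RNA and sorted as GFP-positive after 60 h of culture in medium with human IL-2. The hairpin was against Eos in the group labelled si-Eos and against Renilla luciferase, the control, in the group labelled si-RL. How many animals gave each RNA was not given in the sources used here.

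Cytosolic synthetases charge the tRNAs that serve the ribosomes of the cytosol, and a separate set of nuclear genes, most with names ending in 2, makes the enzymes imported into mitochondria. Glycyl- and lysyl-tRNA synthetase (Gars and Kars) serve both compartments from 1 gene each. In mammals, several cytosolic synthetases are held in the multi-synthetase complex, and many are known targets of Atf4, the transcription factor of the amino acid response, which acts on genes when uncharged tRNA or other stresses lead to phosphorylation of eIF2. T cells raise protein synthesis on activation, which needs charged tRNA.

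A level here is log2 of the processed signal minus the 75th percentile of its array, and a difference is one level minus another, in log2 units. Each gene was read from its brightest probe. All 35 members were well above background on all 4 arrays. The ± beside a difference is the scanner software's technical error of the spots of both arrays combined. It does not hold the spread between cell samples, which 1 array per group cannot give, so differences have no replicate check and no p-value, and a fold of 2 is used only to count. In these bulk samples, fewer cells of a type and less RNA per cell cannot be told apart.

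The targeted gene went against the labels. The Ikzf4 level (Eos) was -0.65 in naive T and -0.11 in untransduced Treg, against -0.36 in the si-Eos-labelled library and -1.29 in the si-RL-labelled library. It was 0.93 ± 0.21 higher in the si-Eos-labelled library than in that labelled si-RL, and Foxp3, the defining factor of Treg, was 4.30 ± 0.21 higher. Each direction between the hairpin libraries below is therefore by label only. The T cell markers (6 of 6) were above background on every array, and their summed level ran from 137 to 224 times the array's 75th percentile. Their median difference was -0.97 in si-RL against Treg, with 1 of 6 above 0. In si-Eos against si-RL their differences ran from -0.02 to 1.85, with a median of 0.39. The summed level of the 5 Treg markers was 3.67 in naive T and 56.4 in Treg, with 74.9 in the si-Eos-labelled library and 10.8 in the si-RL-labelled library, and that of the 4 naive markers was 149, 52.9, 45.5 and 122 in the same order. The markers of a list did not all move together. In si-Eos against si-RL, the naive marker differences ran from -4.53 to 1.49, with 1 of 4 above 0. In si-Eos against Treg, the Treg marker differences ran from -0.36 to 2.80, with a median of 0.20 and 3 of 5 above 0. The part of these differences in cell markers in the results below was not tested. Markers of other cells were low: 1.11 to 2.65 for B cells, 1.98 to 3.91 for CD8 T cells, 0.996 to 1.5 for myeloid cells and 0.137 to 0.394 for erythroid cells, with S100a8 and Alas2 not above background on any array. Between the hairpin libraries, none of the 10 measured markers of these 4 cell types was 2-fold apart, though 1 myeloid marker (-0.998) lay just short of it. Only 3 of the 8 listed myeloid markers were measured there.

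Promoters were read for the letters bound by Atf4 with its C/EBP partners, the C/EBP-Atf response element, searched as TGATGNAA on both strands (TTNCATCA on the other). RefSeq promoters of 250 bases before to 50 after the start, in build GRCm38.p6, were matched for 27 of the 35 members. The element was found in 5 of 13 cytosolic promoters (38.5%), those of Aars, Gars, Iars, Tars and Yars, and in 0 of 15 promoters of 14 mitochondrial genes, against 3.97% of all 32851 promoters of this length. The 5 genes are all among the 12 cytosolic enzymes listed as widely reported Atf4 targets, of which 8 had a promoter here. The E-box CACGTG, a Myc-type element that reads the same on both strands and shared no base with the first element in these promoters, was in 4 of 13 cytosolic promoters (Aars, Farsb, Iars and Tars), in 1 of 15 mitochondrial ones (Ears2) and in 7.15% of all promoters. A match is a description of letters and shows no binding. The 60-base windows are shown with the element in capitals, 5′ to 3′ on the gene's strand, for the members that carry it and for Asns, asparagine synthetase, a known Atf4 target that also carries it.
Aars, chr8:111033704-111033763, plus strand: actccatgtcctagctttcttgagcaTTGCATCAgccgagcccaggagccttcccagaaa
Aars, chr8:111033799-111033858, plus strand: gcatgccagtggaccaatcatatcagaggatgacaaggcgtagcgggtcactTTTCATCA
Gars, chr6:55037941-55038000, plus strand: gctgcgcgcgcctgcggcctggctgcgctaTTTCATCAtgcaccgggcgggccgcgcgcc
Iars, chr13:49682085-49682144, plus strand: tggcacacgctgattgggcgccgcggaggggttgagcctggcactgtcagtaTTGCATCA
Tars, chr15:11399659-11399718, minus strand: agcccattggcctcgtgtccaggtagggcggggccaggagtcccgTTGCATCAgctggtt
Yars, chr4:129189854-129189913, plus strand: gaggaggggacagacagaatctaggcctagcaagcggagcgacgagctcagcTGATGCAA
Asns, chr6:7693210-7693269, minus strand: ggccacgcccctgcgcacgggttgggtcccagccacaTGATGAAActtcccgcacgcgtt
Counted from the start of the transcript, the first base of the element lay at -112 and 10 in Aars, -30 in Gars, 8 in Iars, -15 in Tars, 4 in Yars and -23 in Asns.

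Each of the 35 members differed by less than 2-fold between untransduced Treg and naive T cells. Of the 17595 measured genes, 5.51% were 2-fold higher in Treg and 2.04% lower. With shares this small, 0 of 35 does not set the members apart. The median difference, Treg minus naive T, was -0.17 over the cytosolic and -0.21 over the mitochondrial enzymes, against -0.02 over all measured genes, and 3 of 20 and 1 of 15 were above 0. The technical error covered the difference of 10 of the 20 cytosolic and 7 of the 15 mitochondrial genes. The ends of the cytosolic range were Sars (seryl, -0.52 ± 0.20) and Vars (valyl, 0.64 ± 0.20), and those of the mitochondrial range were Ears2 (glutamyl, -0.70 ± 0.20) and Fars2 (phenylalanyl, 0.15 ± 0.20). The direction of both medians depended on the scaling: with the arrays set on their spike-in probes, they were 0.12 and 0.08.

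The library labelled si-Eos held more RNA of most cytosolic synthetases than that labelled si-RL, and the mitochondrial set was not apart in this way. Of the 20 cytosolic genes, 12 were at least 2-fold higher and 0 lower, where 10.7% of the 17082 measured genes were higher and 10.1% lower. Of the 15 mitochondrial genes, 0 were 2-fold apart in either direction. The median difference was 1.05 over the cytosolic enzymes, 0.16 over the mitochondrial ones and 0.04 over all measured genes, and 19 of 20 and 9 of 15 were above 0. The cytosolic values ran from -0.14 to 2.58 and the mitochondrial values from -0.50 to 0.57.

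**Figure D1:**
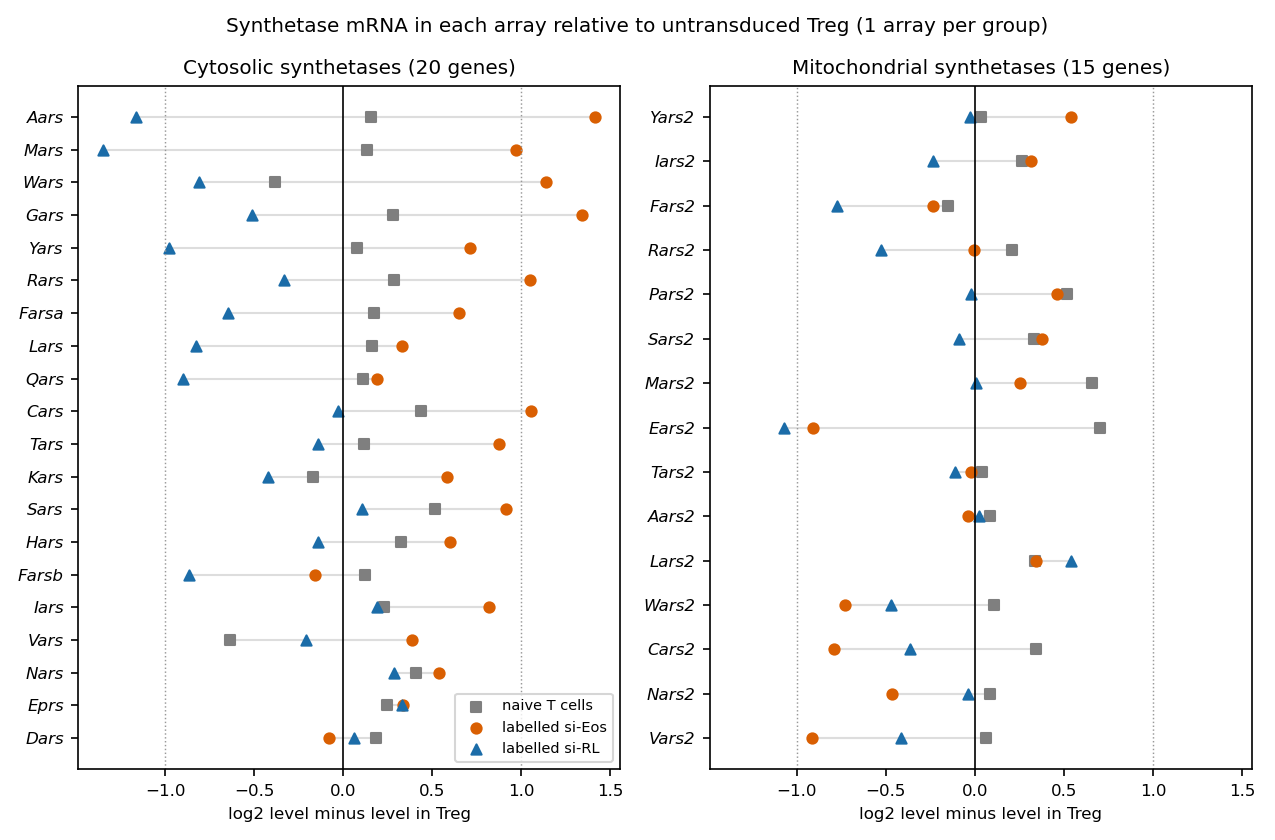
Level of each of the 35 synthetases minus its level in Treg, in log2 units, for naive T cells (squares) and the libraries with labels si-Eos (circles) and si-RL (triangles), 1 array each with no replicate and genes ordered by the difference between the hairpin libraries. The vertical line at 0 is Treg and the dotted lines mark 2-fold. Aars lies at 1.41 in the si-Eos-labelled library and at -1.16 in that labelled si-RL, and the circle is the rightmost point and above Treg for 18 of 20 cytosolic genes.

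Alanyl-tRNA synthetase was the furthest apart. The Aars level was 2.87 in naive T and 2.72 in Treg, against 4.13 in the si-Eos-labelled library and 1.56 in that labelled si-RL. Both untransduced libraries thus lay between the hairpin libraries. The difference between the hairpin libraries was 2.58 ± 0.20, a 5.97-fold higher signal in that labelled si-Eos, from a probe placed at chr8:113942151-113942209 (mm8, per the file headers). Another probe for a RefSeq mRNA of Aars gave 1.90.

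Mars charges methionine, also on the initiator tRNA that starts translation. Its level was 0.90 in naive T and 0.77 in Treg, against 1.74 in the si-Eos-labelled library and -0.58 in that labelled si-RL (chr10:126699833-126699892, mm8). The hairpin libraries were again on either side of the untransduced ones. They differed by 2.32 ± 0.20, or 4.99-fold, and the other Mars probe gave 2.03.

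The tryptophanyl enzyme Wars, known also as a target of interferon-gamma, read 0.76 in naive T and 1.15 in Treg, against 2.29 in the si-Eos-labelled library and 0.34 in that labelled si-RL. This gave a difference of 1.95 ± 0.20, or 3.86-fold, at chr12:109308045-109308104 (mm8), and 1.57 at its other RefSeq probe. For Gars, the glycyl enzyme of both compartments, the levels were 0.38, 0.10, 1.44 and -0.42 in the same order of libraries. Its difference between the hairpin libraries was 1.85 ± 0.20, or 3.61-fold, from 1 probe (chr6:54999060-55002971, mm8). The tyrosyl enzyme Yars had levels of 0.50, 0.42, 1.14 and -0.56 and a difference of 1.69 ± 0.21, or 3.23-fold (chr4:128721107-128721166, mm8). At the probe used for each of these 3 genes, the si-Eos-labelled library stood above, and that labelled si-RL below, both untransduced libraries. At the other, dimmer Wars probe, the si-RL-labelled library (-1.99) was not below naive T (-2.34) or Treg (-2.07).

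The other cytosolic genes past 2-fold were Rars (arginyl, 1.38), Farsa (catalytic chain of the phenylalanyl enzyme, 1.30), Lars (leucyl, 1.16), Cars (cysteinyl, 1.09), Qars (glutaminyl, 1.09), Tars (threonyl, 1.02) and Kars (lysyl, 1.01), the last of these just inside the threshold. Just outside it lay Sars (0.81), Hars (histidyl, 0.75) and Farsb (the second phenylalanyl chain, 0.71). Iars (isoleucyl) read 0.63, Vars 0.59 and Nars (asparaginyl) 0.25, all above the technical error. The aspartyl enzyme Dars (-0.14 ± 0.20) and the glutamyl-prolyl enzyme Eprs (0.01 ± 0.20) were within it. With each alternative that rescaled, renormalized or averaged probes, the 12 genes kept their sign, and the count past 2-fold lay between 8 and 12.

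Mitochondrial enzymes went both ways between the hairpin libraries, by small amounts. Yars2 (0.57 ± 0.20) and Vars2 (-0.50 ± 0.21) were the ends of the range, and 4 of 15 differences were within the technical error. Nars2 (-0.43) and Cars2 (-0.42) were lower in the si-Eos-labelled library, while Iars2 (0.55), Fars2 (0.54) and Rars2 (0.52) were higher. The other values were 0.48 for Pars2, 0.47 for Sars2, 0.25 for Mars2, 0.16 for Ears2, 0.09 for Tars2, -0.06 for Aars2, -0.20 for Lars2 and -0.26 for Wars2. The median, 0.16, was -0.06 when all probes of a gene were averaged. Lars2 had a similar signal on all arrays, with 357743, 366061, 378440 and 356473 intensity units in naive T, Treg, and the si-Eos- and si-RL-labelled libraries. None of its spots was flagged as saturated, and whether its single probe reads only Lars2 mRNA was not tested.

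**Figure D2:**
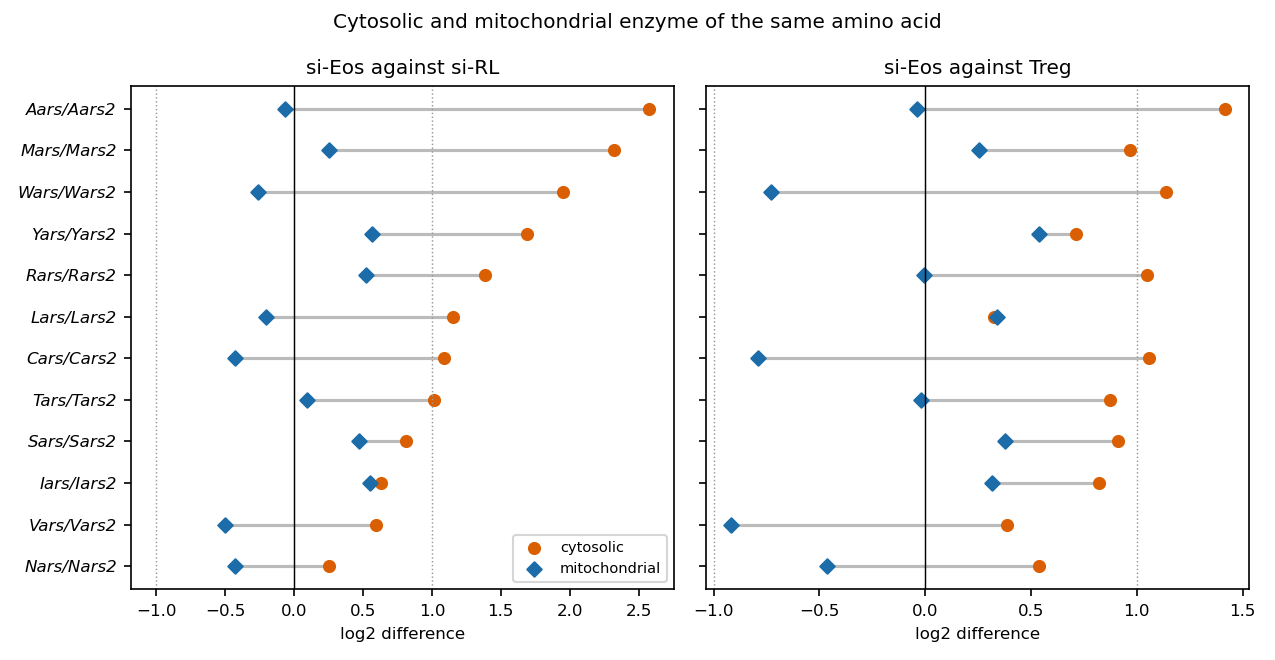
For each amino acid with a cytosolic and a mitochondrial gene, the log2 difference of the cytosolic enzyme and of its mitochondrial partner between libraries. The left panel compares the hairpin libraries, where the cytosolic value (circle) is the larger in 12 of 12 pairs, and the right panel the si-Eos-labelled library with Treg, where it is in 11 of 12. Dotted lines mark 2-fold.

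The same split held amino acid by amino acid. In the 12 amino acids with a separate gene for each compartment, the cytosolic difference between the hairpin libraries was the larger in 12 of 12, with a median gap of 1.11 and a range from 0.08 to 2.64. The widest gap was that of alanine, where Aars was 2.58 and Aars2 -0.06. Tryptophan followed, with 1.95 for Wars and -0.26 for Wars2, and then methionine, with 2.32 for Mars and 0.25 for Mars2. For isoleucine the enzymes of both compartments were close, with 0.63 for Iars and 0.55 for Iars2. Eprs, whose 2 activities are split between Ears2 and Pars2 in mitochondria, had a smaller difference than both (0.01 against 0.16 and 0.48) from its brightest probe, while its other probes read 0.97, 0.91 and 0.43. In the other comparisons the cytosolic difference was the larger in 5 of 12 pairs (Treg against naive T), 6 of 12 (si-RL against Treg) and 11 of 12 (si-Eos against Treg), the exception in the last being leucine, with 0.33 for Lars and 0.34 for Lars2, where quantile normalization gave 0.16 and 1.3e-05.

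Grouped by physical assembly or by enzyme class, the cytosolic genes had similar medians. The 8 enzymes of the multi-synthetase complex had a median difference of 1.05, with 5 past 2-fold, and the 12 free enzymes a median of 1.05, with 7 past it. Class I and class II enzymes, which differ in the fold of the catalytic domain, had medians of 1.12 (7 of 10) and 0.91 (5 of 10). The 12 listed Atf4 targets had a median of 1.12 with 8 past 2-fold, and the other 8 cytosolic genes 0.88 with 4. Of the 5 genes with the element printed above, Aars, Gars, Yars and Tars were past 2-fold and Iars was not. Genes are not replicates, so none of these medians was tested against another.

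Set against untransduced Treg, the median of the cytosolic enzymes lay below 0 in the si-RL-labelled library and above 0 in that labelled si-Eos, while most members did not reach 2-fold in either. Both comparisons use the same Treg array, and transduction, culture with IL-2 and sorting cannot be told apart from the hairpin in them. In each, 1 B cell marker and the 1 measured erythroid marker were at least 2-fold lower than in Treg and 1 myeloid marker was higher, and their part was not tested. In the si-RL-labelled library, the median difference from Treg was -0.38 over the cytosolic and -0.11 over the mitochondrial genes, against -0.01 over all measured genes. Mars (-1.35 ± 0.20, a 2.55-fold lower signal), Aars (-1.16 ± 0.20) and mitochondrial Ears2 (-1.08 ± 0.20) were at least 2-fold lower, and 0 members were higher, where 8.21% of measured genes were lower and 7.89% higher. The share of members lower was thus near that of all genes. The other Ears2 probe, dimmer and not assigned to a RefSeq mRNA, read 0.02 ± 0.23. Only 5 of 20 cytosolic and 3 of 15 mitochondrial values were above 0, with Eprs (0.33) and Lars2 (0.54) at the upper ends. The other Eprs probes read -0.37, -0.39 and 0.14. The Lars2 value rests on the scaling, being 0.13 with spike-in scaling and 1.3e-05 with quantile normalization. Yars (-0.98), Qars (-0.90), Farsb (-0.87), Lars (-0.83) and Wars (-0.81) came next below Aars. The other Wars probe read 0.08 ± 0.21. The count of 3 lower members was 10 with spike-in scaling and 0 with a local normexp background. With that background the cytosolic median was -0.15, and its distance from the median of all genes was 0.16 in place of -0.37.

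In the si-Eos-labelled library, 18 of 20 cytosolic and 6 of 15 mitochondrial genes were above their Treg level, with medians of 0.68 and -0.02, against 0.06 over all measured genes. Aars (1.41 ± 0.20), Gars (1.34 ± 0.20), Wars (1.14 ± 0.20), Cars (1.06 ± 0.20) and Rars (1.05 ± 0.21) were at least 2-fold higher and 0 members lower, where 8.85% of measured genes were higher and 10.0% lower. Mars (0.97), Sars (0.91), Tars (0.87) and Iars (0.82) followed. At the low ends were Farsb (-0.16 ± 0.20) and mitochondrial Vars2 (-0.92 ± 0.21), with Ears2 (-0.91), Cars2 (-0.79) and Wars2 (-0.73) close to the latter and Yars2 (0.54) at the mitochondrial upper end. Of the 12 listed Atf4 targets, 12 were above 0, with a median of 0.89, and of the other 8 cytosolic genes 6 were, with a median of 0.48. The count of 5 was 1 with spike-in scaling, 3 with normexp and 1 background per array, and 10 with a local normexp background, under which Rars read -0.0019.

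In 14 of 20 cytosolic genes, and 4 of 15 mitochondrial ones, the si-Eos-labelled library was above Treg while that labelled si-RL was below it. Over the 4 arrays, the lowest level of a cytosolic gene was in the si-RL-labelled library for 14 genes, in Treg for 4 and in naive T and the si-Eos-labelled library for 1 each. Mitochondrial genes were lowest in the si-RL-labelled library for 8, in that labelled si-Eos for 5 and in Treg for 2. Both hairpin libraries were below Treg, by sign alone, in 8 of 15 mitochondrial genes and in 1 of 20 cytosolic ones, Farsb. Some of these differences were within the technical error, such as Farsb (-0.16 ± 0.20) and Rars2 (-0.005 ± 0.20) in si-Eos against Treg. Ears2 had the widest mitochondrial range, with levels of 1.11 in naive T and 0.41 in Treg, against -0.50 in the si-Eos-labelled library and -0.67 in that labelled si-RL. At its other, dimmer probe the levels were -2.37, -2.57, -3.41 and -2.54 in the same order. The span from lowest to highest array had a median of 1.06 over cytosolic and 0.567 over mitochondrial genes.

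**Figure D3:**
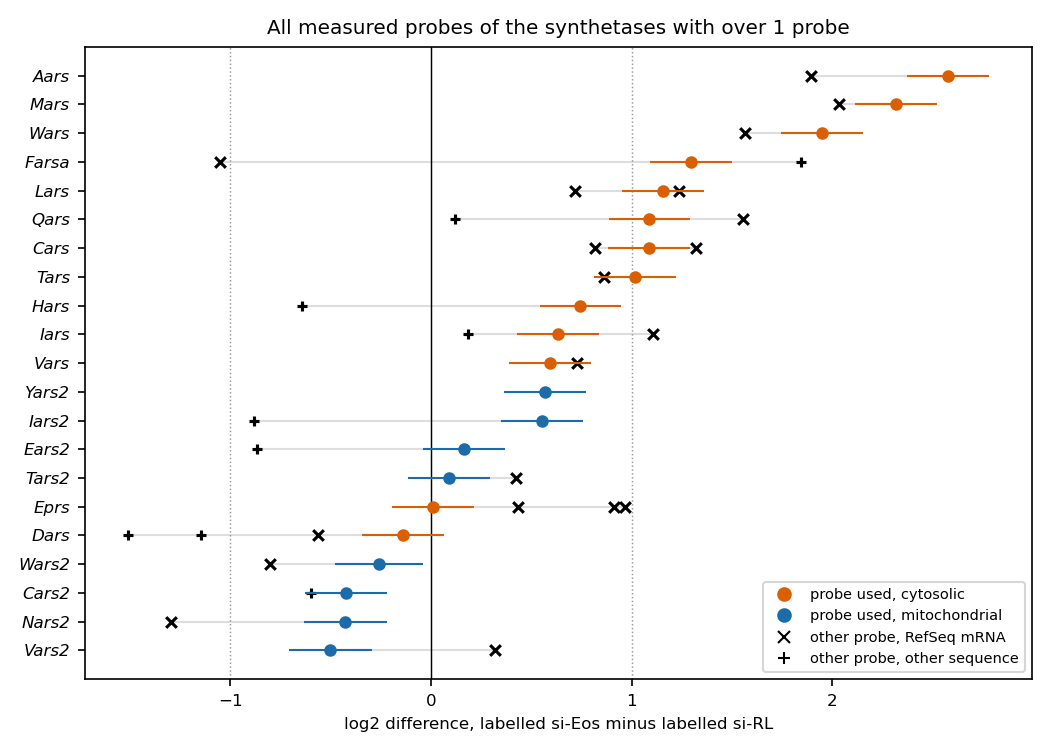
Log2 difference between the si-Eos- and si-RL-labelled libraries for every probe of a member well above background on both arrays, for members with more than 1 probe. Circles are the probes used, with the technical error as a bar, and crosses the other probes. The other probes had a median gap of 0.475 from the one used.

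The array carried 71 probes for the 35 members, and 14 members had a single probe. Between the hairpin libraries, 20 genes had 29 other measured probes, whose median gap from the probe used was 0.475. In 4 genes another probe had the opposite sign with both differences beyond their technical error: Farsa (-1.05), Hars (-0.64), Iars2 (-0.88) and Vars2 (0.32). For Ears2, whose used probe was within its error, the other probe read -0.87. For Farsa the probe used was not assigned to a RefSeq mRNA and the opposite one was, though that one was dim, with levels from -4.38 to -3.31, and the remaining probe, also without a RefSeq mRNA, read 1.84. The place of Farsa among the 12 is therefore uncertain. Between Treg and naive T, 0 of 30 other probes were opposite with both differences beyond error and the median gap was 0.105. Other probes of Dars (0.41) and Qars (0.39) were opposite to used probes that lay within their error. Against Treg, 5 of 30 other probes were opposite beyond error in the si-RL-labelled library, those of Eprs, Farsa, Iars2 and Wars2. In the si-Eos-labelled library 3 of 30 were, those of Farsa, Hars (-1.69) and Iars2.

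Genes of the Atf4 pathway, which is known to drive many synthetase genes, also differed between the hairpin libraries. Their part in the synthetase result was not tested. The Atf4 level itself was 2.76 in naive T and 2.21 in Treg, against 2.66 in the si-Eos-labelled library and 1.30 in that labelled si-RL, where it was lowest. That of Asns, which makes asparagine, was -0.54, 1.09, 4.43 and 1.32 in the same order and so was highest in the si-Eos-labelled library. Ddit3, a stress-induced transcription factor also called Chop, read 1.97, 1.20, 2.46 and 0.47. Between the hairpin libraries these gave 1.35 ± 0.20, 3.1 ± 0.20 and 1.99 ± 0.20. Of 24 measured genes of the listed pathway (28 in all), 13 were at least 2-fold higher in the si-Eos-labelled library, with a median of 1.5, and 1 was lower, the lipoprotein receptor gene Vldlr (-2.06). Over all measured genes these shares were 10.7% and 10.1%. The genes furthest apart were the transcription factors Jdp2 (3.63) and Atf3 (3.45), followed by Asns and by Chac1 (2.83), which degrades glutathione.

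Against Treg, the pathway went in more than 1 direction in the si-RL-labelled library. Its median over 23 measured genes was -0.16. Higher were 5 genes: Stc2 (stanniocalcin, 5.50), Sesn2 (3.68) and Ddit4 (3.0), both inhibitors of mTORC1, Eif4ebp1 (an inhibitor of cap-dependent translation, 2.43) and Trib3 (a pseudokinase, 1.88). Stc2 was dim in Treg, with a level of -4.30, and its difference had a technical error of 0.28. Lower were 3 genes: Psat1 (serine synthesis, -1.75), Slc3a2 (an amino acid transporter chain, -1.14) and Jdp2 (-1.06), with Atf4 at -0.90, Ddit3 at -0.73 and Asns at 0.23. Over all measured genes, 7.89% were higher and 8.21% lower here. The genes beyond the furthest 4 are named after their values were seen, to complete these counts. In the si-Eos-labelled library, 16 of 24 measured genes were at least 2-fold above Treg and 0 below, with a median of 1.71, led by Stc2 (5.28), Sesn2 (3.79), Asns (3.34) and Chac1 (3.31), where 8.85% of all measured genes were higher and 10.0% lower. Between Treg and naive T, 3 of 23 were higher (5.51% of all measured genes), with a median of 0.23, and Asns was 1.62, Atf4 -0.55 and Ddit3 -0.78.

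**Figure D4:**
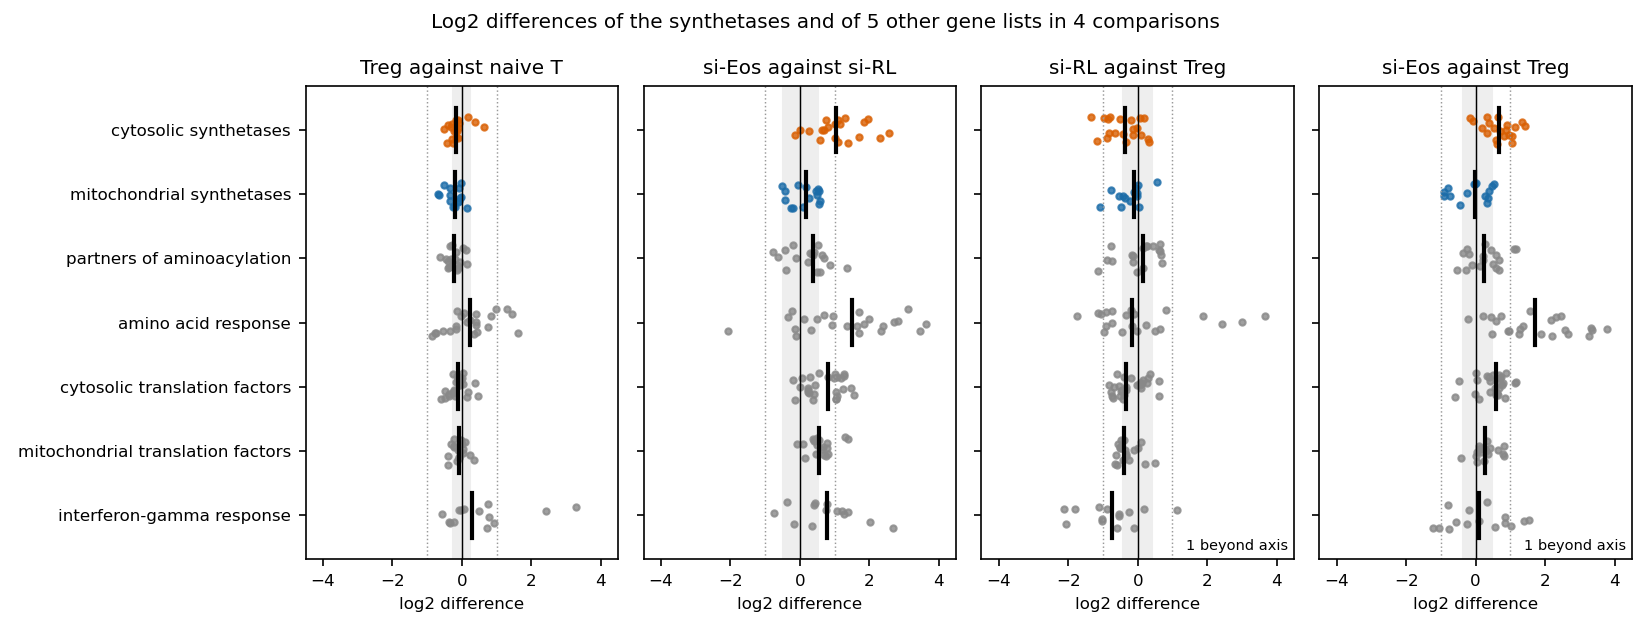
Log2 differences of each gene of the synthetase classes and of the other lists in the 4 comparisons, 1 point per gene, with the list's median as a black bar and the middle 50% of all measured genes as a grey band. Stc2, at 5.50 and 5.28 against a dim Treg level of -4.30, lies beyond the axis. The cytosolic synthetases had a median of 1.05 between the si-Eos- and si-RL-labelled libraries and of -0.17 between Treg and naive T.

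Of the cytosolic translation factors, 12 of 27 reached a 2-fold higher signal in the si-Eos-labelled library than in that labelled si-RL and 0 a lower one. Over all measured genes, 10.7% were higher and 10.1% lower. The median of these factors was 0.80, with 25 of 27 above 0. The furthest apart were Eif5a (1.55), which helps ribosomes past hard stretches, the cap-binding factor Eif4e (1.48) and the eIF3 subunits Eif3b and Eif3c (both 1.27). Mitochondrial translation factors had a median of 0.56, with 18 of 19 measured genes above 0. Of these 19, 2 were 2-fold higher, the ribosomal proteins Mrps22 (1.39) and Mrps7 (1.29), a share near the 10.7% of all measured genes. In the si-RL-labelled library the medians against Treg were -0.34 and -0.39, with 10 of 27 and 4 of 19 genes above 0. There, 0 genes of either list were 2-fold apart, where 7.89% of all measured genes were higher and 8.21% lower. In the si-Eos-labelled library the medians against Treg were 0.60 and 0.26, with 24 of 27 and 18 of 19 genes above 0. At least 2-fold higher were 2 of 27 (Etf1 at 1.15 and Eif6 at 1.13) and 0 of 19, against 8.85% of all measured genes. Between Treg and naive T, 0 genes of either list were 2-fold apart, where 5.51% of all measured genes were higher and 2.04% lower. The medians were -0.12 and -0.08.

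Partners of the synthetases hold them in the complex, edit their products or handle tRNA. Between the hairpin libraries their median was 0.37 over 18 genes and 1 was at least 2-fold higher, Thg1l (1.35), the guanylyltransferase of histidyl tRNA, against 10.7% of all measured genes. The scaffold genes of the multi-synthetase complex, named after their values were seen, read 0.36 (Aimp1), 0.25 (Aimp2) and 0.39 (Eef1e1), all below the median of the 8 enzymes they bind. Against Treg, the partners had a median of 0.15 in the si-RL-labelled library, with Dtd1 lower (-1.14), where 8.21% of all measured genes were lower. In the si-Eos-labelled library the median was 0.24. The tRNA exporter Xpot (1.15) and the deacylase Dtd2 (1.10) were higher there, as were 8.85% of all measured genes. The median between Treg and naive T was -0.24 with 0 of 18 genes 2-fold apart, where 5.51% of all measured genes were higher and 2.04% lower.

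Interferon-gamma response genes are given beside Wars. Between the hairpin libraries 6 of 14 measured genes of this list were higher by 2-fold or more in that labelled si-Eos and 0 lower, with a median of 0.78, led by the peptide transporter gene Tap1 (2.67), the MHC class II activator Ciita (2.02) and Irgm1 (1.39), where 10.7% of all measured genes were higher and 10.1% lower. In the si-RL-labelled library, 6 of 14 were lower than in Treg (8.21% of all measured genes) and 1 higher (7.89%). The median was -0.73 in this library, while Wars was -0.81 ± 0.20 (0.08 ± 0.21 at its other probe). In that labelled si-Eos, 3 of 15 were higher than in Treg (8.85% of all measured genes) and 2 lower (10.0%), with a median of 0.10, while Wars was 1.14. Between Treg and naive T, 2 of 14 were higher (5.51% of all measured genes), Cxcl10 (3.28) and Gbp3 (2.41), with a median of 0.28, and Wars was 0.39. Their part in the Wars result was not tested.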

How the data were processed

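Per the file headers, the deposited scanner files were made with Agilent Feature Extraction 9.5.3.1, which subtracted background and did not normalize between arrays, with probes placed on mm8. The deposited intensity values were linear. The authors' value table held the same processed signals (100% of spots within 0.5%). All 4 arrays were on 1 slide and in 1 scan. Levels were computed as the log2 processed signal less the 75th percentile of the array over its 41174 non-control probes, leaving out 71 to 94 outlier spots per array. Between 64.0% and 68.3% of probes were well above background. With 1 array per group no model was fitted, and the number of arrays limits the precision.

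Names came from RefSeq accessions (24375 probes), symbols (6301), synonyms (2426) or the file (8072). A gene was measured where both arrays compared had its brightest probe well above background. The counting step was tested on simulated data. Python 3.11.15, pandas 2.3.3, R 4.3.3 and limma 3.58.1 were used. The members, lists and rule for named genes (members at least 2-fold apart, class extremes, members with disagreeing probes, and per list the 4 genes furthest apart plus Atf4, Asns and Ddit3) were chosen with earlier results of these data known; some listed genes are not reported here. Alternatives were median, quantile and spike-in scaling, normexp background (local, or 1 value per array, offset 50), the mean of all probes, the file's gene names and no filter on dim probes. A 1.5-fold count and leaving out Lars2 were added after the data were seen.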

Additional observations from a re-analysis of the deposited data

Results flagged for a closer look

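Aars moved in opposite directions from Treg in the hairpin libraries: 1.41 on the log2 scale in the si-Eos-labelled library and -1.16 in that labelled si-RL, both past 2-fold. The difference was not tested, since each library is 1 array and both comparisons share the Treg array. At another RefSeq probe of Aars the values were 1.48 and -0.42.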

How the results depend on the processing

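Between the si-Eos- and si-RL-labelled libraries, the cytosolic median stayed between 0.91 and 1.12 and the gap between the classes between 0.741 and 0.996 in every alternative run. All 12 members past 2-fold kept their sign in the 8 alternatives planned, as did 19 of 20 cytosolic genes (not Eprs) and 10 of 15 mitochondrial ones; the mitochondrial median was -0.065 with the mean of probes. The cause of the changes below was not tested. Median scaling gave -0.38 (cytosolic) and -0.42 (mitochondrial) for the medians of Treg against naive T. Spike-in scaling moved the median of all genes to 0.26, 0.11, -0.42 and -0.28 in Treg against naive T, si-Eos against si-RL, si-RL against Treg and si-Eos against Treg. With it the medians (cytosolic, mitochondrial) were 0.12 and 0.077 for Treg against naive T, -0.79 and -0.52 for si-RL against Treg, and 0.34 and -0.36 for si-Eos against Treg. Lower members were 10 in si-RL against Treg, and 1 higher and 4 lower in si-Eos against Treg. With a local normexp background, the cytosolic median was -0.45, -0.15 and 1.01 in Treg against naive T, si-RL against Treg and si-Eos against Treg, the gap between the classes was -0.32, 0.12 and 1.45, and the mitochondrial median in the last was -0.44. There, 10 members were higher and 2 lower in si-Eos against Treg, with Rars at -0.0019, and 1 was higher and 0 lower in si-RL against Treg. Normexp with 1 background per array left 3 higher in si-Eos against Treg. At 1.5-fold, 1 member was higher and 2 lower in Treg against naive T, 12 higher and 4 lower in si-Eos against Treg, and 10 lower in si-RL against Treg. Of all genes past 2-fold, the share that was higher was 73.0% (55.2% with median and 88.2% with spike-in scaling) in Treg against naive T, 49.0% (56.4%, 16.3%) in si-RL against Treg and 46.8% (55.8%, 23.5%) in si-Eos against Treg. The file's gene names, no filter on dim probes, quantile normalization and leaving out Lars2 moved no median or gap between the classes by more than the technical error and no count by over 1.5 times, though small values changed in proportion: for Treg against naive T the gap went from 0.041 to 0.115 with quantile normalization and to -0.0077 without Lars2, and for si-RL against Treg the mitochondrial median went from -0.111 to -0.174 without Lars2. No replicate could be left out, and no paired analysis was possible because each group has 1 array.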

Other observations

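Hars2 and Tarsl2, synthetase genes outside the 35 that were added after their probes were seen, differed by -0.07 and -0.43 between the si-Eos- and si-RL-labelled libraries. In Treg against naive T they were -0.26 and -0.49.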
